A study of Homo sapiens with 6 samples.

Results

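The glucocorticoid receptor gene NR3C1 and 9 genes that glucocorticoids are known to induce, FKBP5, TSC22D3, ZBTB16, PER1, KLF9, KLF15, DUSP1, CEBPD and CRISPLD2, were followed in H69, a human cholangiocyte line kept growing by immortalisation. Cholangiocytes are the epithelium that lines bile ducts. These 10 genes were named by symbol among the 64253 genes of the deposited table, each matched 1 row on a reference chromosome, and all 10 were among the 20992 genes with enough reads to be tested. They were chosen by name with measured values of these libraries in view, namely the level of such genes in vehicle replicate 1 against the other vehicle libraries and the change with TGF-beta, so these values are given as a description. The cells were at passages 30 to 32, in H69 medium of unstated recipe. For 16 h they were exposed either to vehicle or to 10 ng/ml of recombinant human TGF beta, a cytokine of fibrosis and epithelial change, with 3 libraries per condition. The labels name no glucocorticoid as added to or withheld from any sample. They also do not state whether replicates came from separate cultures. The p-values therefore reflect the spread among these libraries alone, which may be technical.

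Glucocorticoids such as cortisol enter the cell and bind the receptor, which is held in the cytoplasm by HSP90 and its co-chaperones. The loaded receptor moves to the nucleus, binds DNA elements built from a pair of inverted hexamers and raises transcription of a set of genes shared by many tissues, and it also lowers many inflammatory genes. Several of the induced genes act as brakes: FKBP5 lowers the receptor's affinity for hormone, TSC22D3 (GILZ) and DUSP1 restrain inflammatory and MAP kinase signalling, and the receptor lowers its own gene in many cell types.

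The 9 induced genes did not share a single response to TGF-beta. Vehicle replicate 1 held all 9 above vehicle replicates 2 and 3, by 1.99-fold (DUSP1) to 8.18-fold (ZBTB16) over their mean, while vehicle replicates 2 and 3 lay close to each other (ratio of replicate 3 to replicate 2 from 0.825 to 1.11 over the 10 genes). The TGF-beta libraries were tight, with a highest level of at most 1.46 times the lowest for each gene. Against vehicle replicates 2 and 3 alone, 8 of the 9 induced genes were higher with TGF-beta and KLF15 was lower. Against all 3 vehicle libraries, CRISPLD2 alone was called higher. NR3C1 was lower with TGF-beta whether or not vehicle replicate 1 was included.

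RefSeq's GRCh38.p14 table gave 18 windows of 250 bases before a transcription start for 8 of the 10 genes. NR3C1 and TSC22D3 supplied most of them and some of these overlap, so the 18 are not separate promoters of induced genes. Each window was searched on both strands for the receptor's hexamer AGAACA and for its paired element of 2 such hexamers, inverted and 3 bases apart. The SMAD proteins, which carry the TGF-beta signal, were represented by the SMAD box CAGACA and by the palindrome GTCTAGAC. The E-box CACGTG, bound by clock factors among others, the cyclic AMP element TGACGTCA and the AP-1 site TGACTCA were searched as well. The receptor hexamer was in none of the 18 windows, against 12.4% of 35116 such windows over the genome, where the paired element occurred in 1 window. The E-box was in 4 of the 18 windows, of 4 genes (6.34% of all windows hold it). The SMAD box was in 3 of the 18, of 3 genes (13.6% of all windows). The cyclic AMP element was in 1 of the 18, that of DUSP1 (1.65% of all windows). The palindrome and the AP-1 site were in none (0.182% and 4.20% of all windows). Only the windows with an E-box are shown. They leave out NR3C1 and CRISPLD2, the genes called with all 6 libraries. NR3C1 also holds a SMAD box, in a window that is not shown. Matches are in capitals, each sequence runs 5′ to 3′ on the gene's strand, in the FKBP5 window the SMAD box and the E-box share bases, and in the PER1 window the SMAD box lies on the other strand.
FKBP5, chr6:35688916-35689165, minus strand: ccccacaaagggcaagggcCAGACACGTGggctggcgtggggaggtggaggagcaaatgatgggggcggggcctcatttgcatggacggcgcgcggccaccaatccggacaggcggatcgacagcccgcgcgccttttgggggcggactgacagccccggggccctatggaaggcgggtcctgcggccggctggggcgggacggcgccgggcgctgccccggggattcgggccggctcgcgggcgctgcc
PER1, chr17:8152405-8152654, minus strand: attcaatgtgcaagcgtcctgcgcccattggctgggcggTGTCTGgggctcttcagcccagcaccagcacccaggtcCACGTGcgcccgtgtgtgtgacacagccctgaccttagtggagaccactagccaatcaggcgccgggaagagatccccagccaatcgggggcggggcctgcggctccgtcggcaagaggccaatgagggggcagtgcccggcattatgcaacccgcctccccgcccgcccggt
KLF15, chr3:126357409-126357658, minus strand: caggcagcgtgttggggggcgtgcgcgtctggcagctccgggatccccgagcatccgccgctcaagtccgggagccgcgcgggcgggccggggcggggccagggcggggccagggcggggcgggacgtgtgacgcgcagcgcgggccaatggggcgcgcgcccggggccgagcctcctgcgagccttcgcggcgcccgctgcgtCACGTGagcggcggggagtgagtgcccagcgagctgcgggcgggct
DUSP1, chr5:172771196-172771445, minus strand: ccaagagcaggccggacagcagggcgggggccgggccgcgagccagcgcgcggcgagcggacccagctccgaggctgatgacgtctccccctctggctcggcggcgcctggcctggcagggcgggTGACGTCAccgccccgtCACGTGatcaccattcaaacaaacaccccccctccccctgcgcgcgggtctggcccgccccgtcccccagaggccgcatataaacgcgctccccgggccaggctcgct
FKBP5 has a second listed start with no match. A match is a run of letters and not a bound site, and elements outside these windows were not searched.

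NR3C1 encodes the receptor itself (ENSG00000113580, hg38 chromosome 5, 143277931 to 143435512). It measured 199.8, 238 and 232 CPM (reads scaled to library size, with TMM factors) in vehicle replicates 1, 2 and 3, and 147, 148 and 139 CPM in TGF-beta replicates 1, 2 and 3. All TGF-beta libraries lay below all vehicle libraries, and vehicle replicate 1 was the lowest of the vehicle libraries. The means were 223 ± 20.6 and 145 ± 5.19 CPM (SD, n = 3 each), and the fitted log2 fold change was -0.63 (standard error, SE, 0.06), and -0.70 (SE 0.04) without vehicle replicate 1. In vehicle replicate 1 the receptor gene thus stood at 0.850 times the mean of the other vehicle libraries, while its induced genes stood above those libraries. By that ratio NR3C1 ranked 17185 of the 20992 genes tested, counted from the highest, so many other genes stood as low or lower. A link between the level of the receptor gene and those of the induced genes was not tested.

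**Figure D1:**
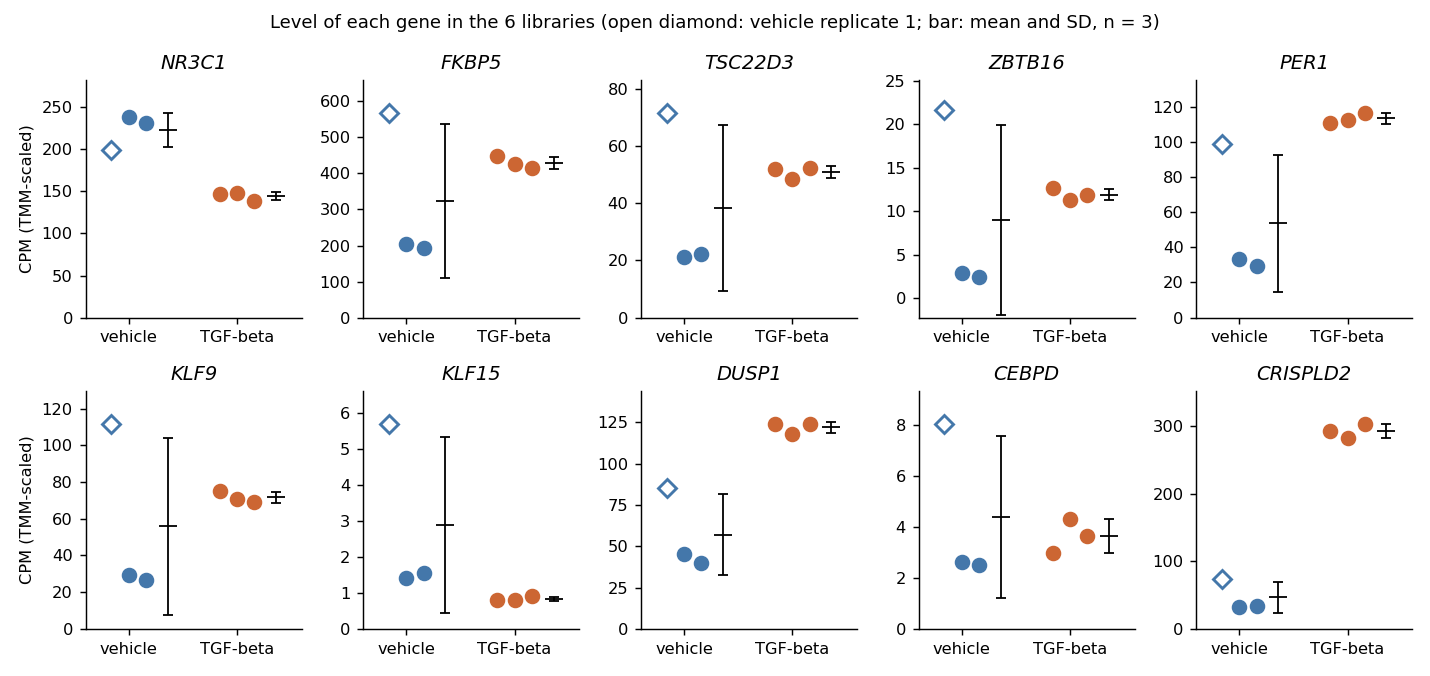
Level of the receptor gene and its 9 induced genes in each library, in TMM-scaled CPM on a linear axis, with the mean and SD of 3 libraries as black bars. The open diamond, vehicle replicate 1, lies above the other vehicle libraries for each induced gene and below them for NR3C1.

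FKBP5, the co-chaperone that feeds back on the receptor (ENSG00000096060, chromosome 6, 35573585 to 35728583), had the most reads of the 10 genes in vehicle replicate 1 and the TGF-beta libraries, and NR3C1 had the most in vehicle replicates 2 and 3. It measured 569, 204 and 194 CPM in vehicle replicates 1 to 3 and 448, 425 and 416 CPM in TGF-beta replicates 1 to 3. The TGF-beta libraries fell between vehicle replicate 1 and the other vehicle libraries, at 2.16 times the mean of vehicle replicates 2 and 3 and 0.756 times vehicle replicate 1. The fitted log2 fold change was 0.42 (SE 0.51), not called, and 1.11 (SE 0.04) without vehicle replicate 1.

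TSC22D3 encodes GILZ, a leucine zipper protein that restrains inflammatory transcription (ENSG00000157514, chromosome X, 107713221 to 107777342). Its levels were 71.8, 21.2 and 22.1 CPM in vehicle and 52.0, 48.5 and 52.5 CPM with TGF-beta. The same order held: vehicle replicates 2 and 3 lowest, TGF-beta between, vehicle replicate 1 highest. Its log2 fold change was 0.42 (SE 0.58), not called, and 1.23 (SE 0.05) without vehicle replicate 1.

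ZBTB16, a zinc finger repressor also named PLZF (ENSG00000109906, chromosome 11, 114059593 to 114250676), had the widest range in vehicle as a ratio. Vehicle replicates 1, 2 and 3 stood at 21.7, 2.90 and 2.39 CPM, from 908, 163 and 124 reads, and the TGF-beta libraries at 12.6, 11.3 and 11.8 CPM. Vehicle replicate 1 was 8.18 times the mean of the other vehicle libraries, and rank 11 of the 20992 genes tested by that ratio. The log2 fold change was 0.45 (SE 0.99), not called, -0.011 without vehicle replicate 3, and 2.16 (SE 0.10) without vehicle replicate 1.

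KLF9, a Krüppel-like factor and a direct receptor target in many tissues (ENSG00000119138, chromosome 9, 70384597 to 70414624), measured 112, 29.5 and 26.8 CPM in vehicle and 75.1, 70.5 and 69.2 CPM with TGF-beta. The TGF-beta libraries again lay between vehicle replicate 1 and the others, with a log2 fold change of 0.36 (SE 0.67), not called, and 1.35 (SE 0.05) without vehicle replicate 1. CEBPD, a C/EBP transcription factor (ENSG00000221869, chromosome 8, 47736909 to 47739086), was scarce and followed the same order, at 8.06, 2.62 and 2.51 CPM in vehicle and 2.97, 4.32 and 3.66 CPM with TGF-beta. Its TGF-beta libraries were the least even of the 10 genes, and its fitted change turned sign, from -0.23 (SE 0.57), not called, to 0.53 (SE 0.14) without vehicle replicate 1. FKBP5, TSC22D3, ZBTB16, KLF9 and CEBPD are thus 5 of the 10 genes with vehicle replicates 2 and 3 below every TGF-beta library and these below vehicle replicate 1, an order found in 2.69% of all genes tested. The 10 genes were named with vehicle replicate 1 in view, so nothing is read from that share.

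PER1, DUSP1 and CRISPLD2 stood above vehicle replicate 1 as well. PER1, a repressor of the circadian clock that glucocorticoids raise within hours (ENSG00000179094, chromosome 17, 8140472 to 8156506), measured 98.6, 33.1 and 29.4 CPM in vehicle and 111, 113 and 117 CPM with TGF-beta. The conditions did not overlap, but TGF-beta stood only 1.15 times above vehicle replicate 1 against 3.63 times above the other vehicle libraries, and the log2 fold change of 1.09 (SE 0.56) was not called (1.86, SE 0.05, without vehicle replicate 1). An overlapping gene on the same strand, AC129492.3, was assigned reads equal to 7.93% of those of PER1, and the split of reads between them is uncertain.

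DUSP1, the phosphatase MKP-1 that switches off MAP kinases (ENSG00000120129, chromosome 5, 172768090 to 172771195), measured 85.3, 45.6 and 40.1 CPM in vehicle and 124, 118 and 124 CPM with TGF-beta. It had the smallest distance of vehicle replicate 1 among the induced genes. Its log2 fold change was 1.10 (SE 0.33) and was not called by edgeR, but was called by DESeq2, by limma on RPKM and where genes needed 1 CPM or more in 3 libraries, and it was 1.51 (SE 0.05) without vehicle replicate 1.

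CRISPLD2, a secreted protein that binds lipopolysaccharide (ENSG00000103196, chromosome 16, 84819984 to 84920768), had the largest rise of the 9 induced genes. It measured 73.3, 33.0 and 33.6 CPM in vehicle and 293, 283 and 303 CPM with TGF-beta, 4.0 times vehicle replicate 1 and 8.81 times the mean of the other vehicle libraries. The log2 fold change was 2.66 (SE 0.39), and 3.14 (SE 0.05) without vehicle replicate 1, and both fits called it higher.

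KLF15, a Krüppel-like factor of amino acid and glucose metabolism (ENSG00000163884, chromosome 3, 126342635 to 126357442), was the one induced gene lower with TGF-beta than in each vehicle library. It was scarce, at 5.70, 1.41 and 1.56 CPM in vehicle, from 239, 79 and 81 reads, and 0.812, 0.794 and 0.903 CPM with TGF-beta, from 29, 36 and 35 reads. The log2 fold change was -1.75 (SE 0.74), not called by edgeR and called by DESeq2, and moved to -0.83 (SE 0.19), called lower, without vehicle replicate 1. KLF9 and KLF15, both Krüppel-like factors high in vehicle replicate 1, therefore lay on opposite sides of vehicle replicates 2 and 3 with TGF-beta.

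Over the 10 genes, 1 was called higher and 1 lower in the fit of all 6 libraries (edgeR's quasi-likelihood test, adjusted p under 0.05 over all genes), where 19.7% of all genes tested were called higher and 20.4% lower. Without vehicle replicate 1 the counts were 8 and 2, against 24.9% and 25.5% of all genes. The 8 genes gained a call when that library was left out, as 11.8% of all genes did, and none of the 10 lost one, as 0.548% of all genes did. At least a 2-fold rise that was called was seen for CRISPLD2 with all 6 libraries (4.78% of all genes) and for 7 of the 10 genes without vehicle replicate 1 (5.54%). The median log2 fold change of the 10 genes was 0.42 and 1.29 in these fits, and that of all genes tested was -0.01 in both. For 3 of the 10 the conditions did not overlap with TGF-beta higher, and for 2 with TGF-beta lower, where 25.4% and 26.9% of all genes did so. The SE of the 8 uncalled genes ran from 0.33 to 0.99, against a median of 0.09 over all genes tested, and fell to between 0.04 and 0.19 for the 10 genes without vehicle replicate 1. That fit rests on vehicle replicates 2 and 3, which lay close together, so its small errors do not make a call firmer. The 10 genes were named with this contrast known, and their counts are not read against these shares.

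**Figure D2:**
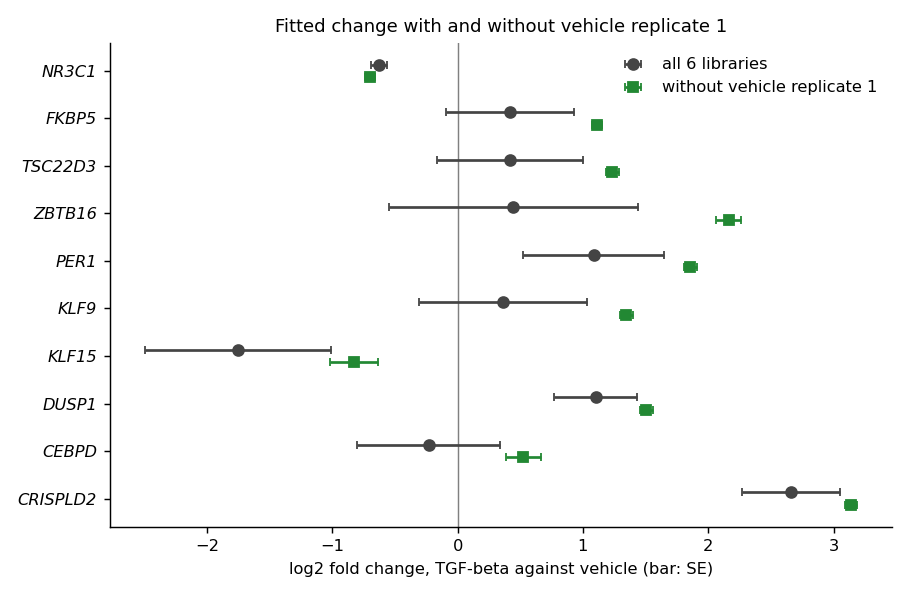
Fitted log2 fold change of each gene with TGF-beta against vehicle, with its SE as a bar, from all 6 libraries (circles) and without vehicle replicate 1 (squares). The squares lie to the right of the circles for all 9 induced genes and CEBPD crosses 0, while NR3C1 moves from -0.63 to -0.70.

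Vehicle replicate 1 stood at least 2-fold above both other vehicle libraries for 8 of the 10 genes, against 1.20% of all genes tested, and for none at least 2-fold below both, against 1.37%. DUSP1 was just under that limit and NR3C1 lay below the others. The median log2 ratio of vehicle replicate 1 to the mean of the others was 1.66 over the 10 genes and 0.00 over all genes. Scaling by library totals alone, or the authors' RPKM, gave the same count of 8 genes. Vehicle replicate 1 had the fewest reads of the vehicle libraries (39971568, against 54160521 and 49604277), and the TGF-beta libraries had 37205862 to 47314515. The part of read depth, of the cells used or of their handling in this distance was not tested.

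Levels per gene length, in the RPKM (reads scaled to gene length and library size) that the authors deposited, gave another order of the 10 genes in each condition. In vehicle replicates 2 and 3 NR3C1 led at 11.3 and 11.1 RPKM, followed by DUSP1 at 9.85 and 8.75 and FKBP5 at 8.39 and 8.03. With TGF-beta DUSP1 led at 24.2 to 25.4 RPKM, then FKBP5 at 16.1 to 17.5, CRISPLD2 at 14.7 to 15.7, PER1 at 6.55 to 6.85 and NR3C1 at 6.21 to 6.70. PER1 and NR3C1 overlapped there, as did ZBTB16 and CEBPD, and KLF15 was last at 0.116 to 0.130 RPKM. In vehicle replicate 1 FKBP5 led at 23.5 RPKM, with DUSP1 at 18.6, NR3C1 at 9.57 and KLF9 at 9.48. With all 3 vehicle libraries, the ranges of most neighbours in the order overlapped.

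The genes whose profile over the 6 libraries was most like that of NR3C1, among 12706 others with a mean of at least 5 CPM, were RSAD1, GLRX and FAS. Their centred log2 CPM differed from that of NR3C1 by a root mean square of 0.03 each, and their log2 fold changes were -0.60, -0.64 and -0.64. The profile of CRISPLD2 was most like those of NYAP1, SLCO2A1 and CACNA1H (root mean square of 0.05, 0.11 and 0.11). These 3 genes rose by 2.83, 2.80 and 2.63 on the log2 scale, and their vehicle replicate 1 also lay above the other vehicle libraries, at 2.27 CPM against 0.925 and 1.003 for NYAP1, 8.25 against 3.11 and 3.22 for SLCO2A1, and 3.29 against 1.76 and 1.56 for CACNA1H.

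Around these genes, 7 lists of receptor partners and related genes were counted, 112 genes of which 93 were tested. With TGF-beta 25 of the 93 rose and 24 fell, where 40.1% of all genes tested were called either way. With library totals alone these counts were 20 and 37, and over all genes the split of 4145 higher and 4278 lower became 2698 and 7282, with the median log2 fold change of all genes at -0.14. By limma on log2(RPKM + 0.1), the split over all genes was 2402 and 4518. Without vehicle replicate 1, 38 were higher and 32 lower. The lists are described by these counts and were not tested as sets.

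Of 12 tested chaperones and co-chaperones listed around the receptor, 2 rose, 4 fell and 6 were not called. These counts were 0 and 6 with library totals alone and 1 and 5 by limma, and 2 fell when any 1 TGF-beta library was left out. HSP90AA1, the inducible HSP90, fell from 1736 ± 30.2 to 1311 ± 50.0 CPM (log2 -0.40, SE 0.04). BAG1, an HSP70 exchange factor that limits receptor activity, fell by 0.43 on the log2 scale, and CDC37, the kinase co-chaperone, rose by 0.24 but was not called with library totals alone. FKBP4, the counterpart of FKBP5 that favours receptor transport, measured 179 ± 0.723 and 182 ± 1.77 CPM and was not called (log2 0.03, SE 0.04, and -0.10 with library totals alone). FKBP4 therefore stayed within 178 to 184 CPM over the 6 libraries in which FKBP5 ran from 194 to 569 CPM.

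Among 12 coregulators, 2 rose, 1 fell and 9 were not called. NCOA2, the coactivator known as GRIP1, fell from 40.5 ± 1.31 to 32.4 ± 1.33 CPM (log2 -0.32, SE 0.05). Vehicle replicate 1 lay close to the other vehicle libraries for NCOA2, at 0.982 times their mean. Called lower were 6 coregulators with library totals alone and 5 by limma, and called higher were 4 without vehicle replicate 1 and with the replicate block.

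Of 10 genes of hormone supply and breakdown, 5 were tested. The mineralocorticoid receptor gene NR3C2, which also binds cortisol, was not among them, at 0.110 to 0.289 CPM, and HSD11B1, the enzyme that regenerates cortisol, measured 0.103 to 0.142 CPM. H6PD, which supplies that enzyme with NADPH, fell from 42.2 ± 6.87 to 23.8 ± 0.918 CPM (log2 -0.83, SE 0.11). SERPINA6, the cortisol-binding globulin of plasma, rose from 0.884 ± 0.124 to 1.58 ± 0.278 CPM (log2 0.86, SE 0.19). HSD11B2, which inactivates cortisol, was not called, at 0.338 to 0.684 CPM.

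Other genes known to be induced by glucocorticoids moved both ways. Of 27 such genes, 24 were tested, of which 7 rose, 6 fell and 11 were not called, with a median log2 fold change of 0.11. Without TGF-beta replicate 1 the number that fell was 3. ANGPTL4, an inhibitor of lipoprotein lipase, rose from 6.56 ± 0.779 to 71.6 ± 3.05 CPM (log2 3.44, SE 0.08) and SGK1, a kinase that raises sodium uptake, from 5.88 ± 1.54 to 33.4 ± 1.77 CPM (log2 2.52, SE 0.17). SGK1 measured 7.66, 5.04 and 4.94 CPM in vehicle, so vehicle replicate 1 was the highest of the vehicle libraries there too, far below the TGF-beta libraries at 31.5 to 35.0 CPM. IGFBP1, a binding protein of insulin-like growth factors, fell from 1.61 ± 0.860 to 0.429 ± 0.143 CPM (log2 -1.93, SE 0.53), with adjusted p from 0.056 to 0.11 by edgeR without any 1 of vehicle replicates 2 and 3 and the TGF-beta libraries.

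Without vehicle replicate 1, 14 of these 24 genes were higher and 9 lower, which leaves 1 uncalled, where 50.4% of all genes were called either way. For 7 of them vehicle replicates 2 and 3 lay below every TGF-beta library and these below vehicle replicate 1 (2.69% of all genes). For 5, vehicle replicate 1 was at least 2-fold above both other vehicle libraries (1.20% of all genes). For 1 it was at least 2-fold below both (1.37%). The lists were chosen with earlier results of these data known, so nothing is read from these shares. The genes named next were picked with their values known. SCNN1A, a subunit of the epithelial sodium channel, measured 405, 131 and 121 CPM in vehicle and 255, 253 and 264 CPM with TGF-beta. RGS2, a regulator of G protein signalling, measured 15.0, 6.41 and 5.998 CPM in vehicle and 13.8, 13.5 and 13.2 CPM with TGF-beta. NFKBIA, the NF-kappaB inhibitor, measured 47.5, 29.6 and 29.95 CPM in vehicle and 44.6, 42.0 and 45.7 CPM with TGF-beta. All 3 were uncalled with all 6 libraries and called higher without vehicle replicate 1. The TGF-beta libraries of BIRC3, at 63.2 to 73.4 CPM, lay just above vehicle replicates 2 and 3 (59.2 and 58.9 CPM). They were far below vehicle replicate 1, which held 203 CPM. BIRC3 was likewise uncalled with all 6 libraries (log2 -0.67, SE 0.61) and called higher without vehicle replicate 1 (log2 0.19, SE 0.05). ANXA1, the annexin classed as a mediator of glucocorticoid action, went the other way: 242, 295 and 299 CPM in vehicle, and 134 to 142 CPM with TGF-beta (log2 -1.02, SE 0.08).

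**Figure D3:**
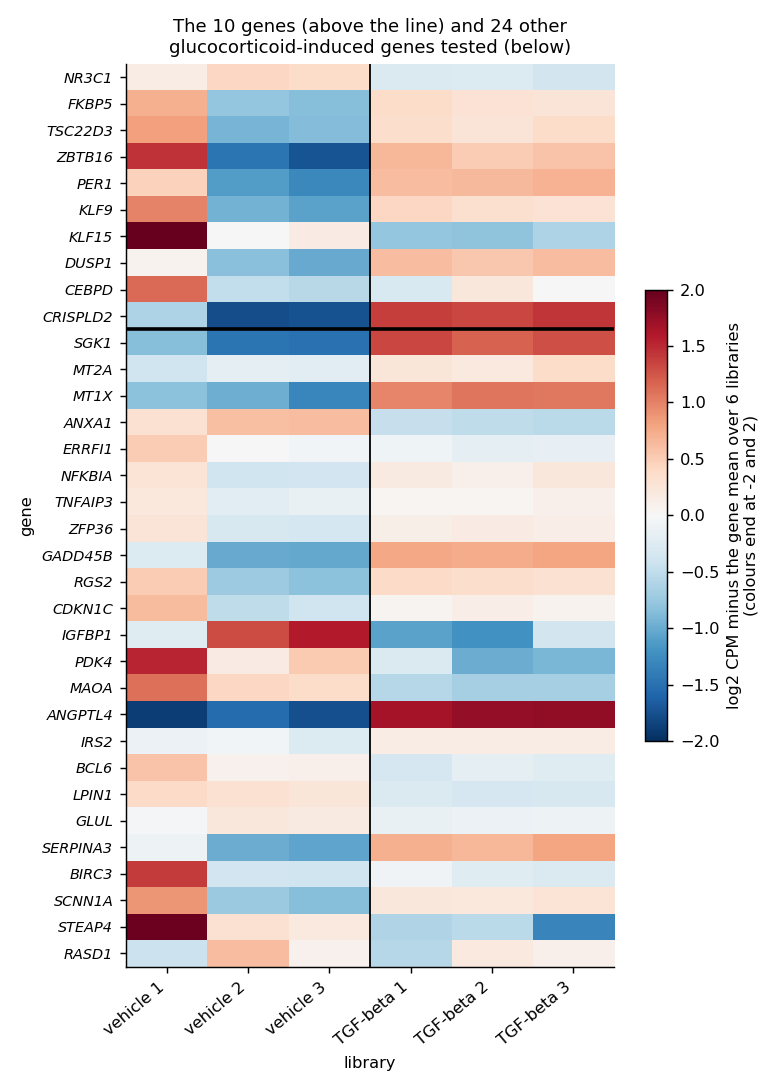
Log2 CPM of the 10 genes (above the line) and of 24 other glucocorticoid-induced genes tested (below), each minus its own mean over the 6 libraries, with libraries in columns. Vehicle replicate 1 differs in colour from the other vehicle columns for the 9 induced genes above the line, while below it genes such as ANGPTL4 and SGK1 separate by condition.

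Genes that glucocorticoids are known to repress were mostly scarce, with 9 of 18 tested, of which 3 rose, 3 fell and 3 were not called (5 fell without vehicle replicate 1, and 1 rose by limma). VCAM1, a leukocyte adhesion receptor, fell from 5.22 ± 0.601 to 2.34 ± 0.616 CPM (log2 -1.15, SE 0.17), and LIF, an IL-6 family cytokine, rose from 39.7 ± 7.65 to 102 ± 7.48 CPM (log2 1.37, SE 0.15). IL6, chosen after its values were seen, was low in vehicle replicate 1 (1.002 CPM) and with TGF-beta (0.840, 0.993 and 0.800 CPM) and higher in vehicle replicates 2 and 3 (3.74 and 4.47 CPM). It was not called with all 6 libraries by edgeR (log2 -1.82, SE 0.62), and was called lower by DESeq2, with the replicate block and without vehicle replicate 1 (-2.21).

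Of 17 tested genes of the circadian clock, to which PER1 belongs, 5 rose, 6 fell and 6 were not called. The number that fell was 3 without TGF-beta replicate 2 and 2 by limma. BHLHE40, a repressor of CLOCK and BMAL1, rose from 58.9 ± 3.94 to 304 ± 2.35 CPM (log2 2.37, SE 0.05). NR1D2, the REV-ERB beta repressor, fell from 50.7 ± 17.2 to 21.1 ± 1.32 CPM (log2 -1.27, SE 0.31). Vehicle replicate 1 held 31.0 CPM and the other vehicle libraries 59.5 and 61.7 CPM, so vehicle replicate 1 lay on the TGF-beta side. The call of NR1D2 was lost without any other single library (adjusted p from 0.085 to 0.10 by edgeR). It was also lost with the replicate block (0.083) and with no filter on low counts (0.070). PER2, the closest relative of PER1 in the list, measured 7.77, 8.49 and 10.1 CPM in vehicle and 7.69 to 7.79 CPM with TGF-beta, and was not called with all 6 libraries (called lower without vehicle replicate 1, log2 -0.26).

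Of 14 tested close relatives of the 10 genes, 5 rose, 3 fell and 6 were not called (3 rose and 5 fell with library totals alone, 3 rose without TGF-beta replicate 2 and by limma, and 1 fell without TGF-beta replicate 1 or 2 or vehicle replicate 2 or 3). The falls were all ERK phosphatases related to DUSP1: DUSP6 fell from 8.31 ± 3.96 to 2.06 ± 0.263 CPM (log2 -2.02, SE 0.49), DUSP4 by 1.91 and DUSP5 by 1.41. DUSP6 stood at 3.74, 10.5 and 10.7 CPM in the vehicle libraries, so vehicle replicate 1 was low for the ERK phosphatases and high for DUSP1. The calls of DUSP6 and DUSP5 were lost without any 1 of vehicle replicates 2 and 3 and the TGF-beta libraries (adjusted p from 0.052 to 0.095 by edgeR). They were also lost with no filter on low counts (adjusted p 0.074 and 0.056 by edgeR). The call of DUSP4 was kept in all these fits. KLF10, a TGF-beta inducible relative of KLF9, rose from 51.8 ± 3.55 to 143 ± 1.57 CPM (log2 1.46, SE 0.05). CEBPB, relative of CEBPD, showed the order seen for FKBP5, at 61.0, 33.1 and 32.1 CPM in vehicle and 57.7, 57.7 and 60.6 CPM with TGF-beta.

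**Figure D4:**
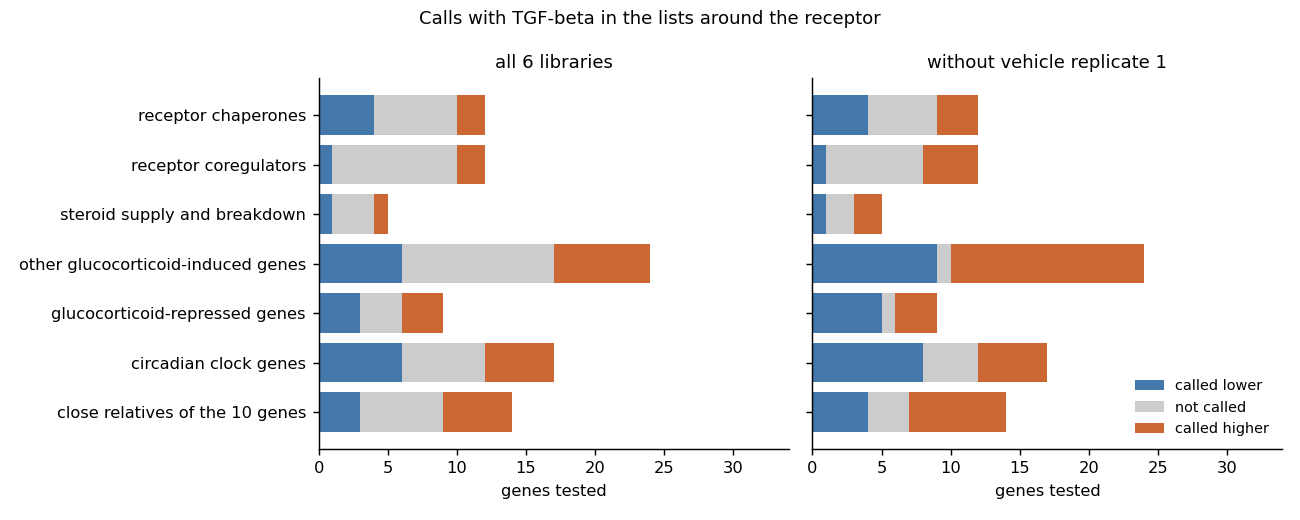
Number of genes called lower, not called and called higher with TGF-beta in each of 7 lists around the receptor, with all 6 libraries (left) and without vehicle replicate 1 (right). Among other glucocorticoid-induced genes the uncalled fell from 11 to 1, and among chaperones from 6 to 5.

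The labelled cell type was checked against markers. KRT7, KRT8, KRT18 and KRT19 were abundant (267 CPM or more in each library), and CFTR was at 0 reads in all 6 libraries. Summed over 12 cholangiocyte markers, the level was 4266 to 4522 CPM in vehicle and 6343 to 6882 CPM with TGF-beta. Hepatocyte markers summed to 98.6 to 111 and 105 to 109 CPM, with ALB and TTR at 0.0771 CPM or less and SERPINA1 (58.9 to 73.9 CPM) and CPS1 (25.7 to 30.8 CPM) making up most of the sum. APOB was at 20.1, 5.11 and 4.59 CPM in vehicle replicates 1, 2 and 3, and at 4.99 to 6.10 CPM with TGF-beta. Fibroblast markers summed to 167 to 186 CPM in vehicle and 266 to 286 CPM with TGF-beta. That sum was mostly THY1 (101 to 108 and 131 to 140 CPM) and PDGFRB (59.4 to 71.9 and 130.2 to 141 CPM), while PDGFRA was lower with TGF-beta (6.11 to 7.37 and 3.97 to 4.33 CPM) and COL3A1 was at 0.0579 CPM or less. Endothelial markers summed to 20.1 to 24.3 and 10.9 to 12.5 CPM, mostly KDR (17.1 to 22.2 and 8.77 to 10.4 CPM), with CDH5 at 0.129 CPM or less. Immune markers summed to 9.09 to 10.8 and 8.98 to 10.6 CPM, mostly CD68 (8.99 to 10.5 and 8.84 to 10.3 CPM), with PTPRC at 0.135 CPM or less. KRT19 was higher in vehicle replicate 1 (435 CPM) than in vehicle replicates 2 and 3 (267 and 275 CPM), as were APOB and the induced genes. The markers went both ways there. KRT7 was also higher in vehicle replicate 1 (1732 CPM against 1445 and 1435). KRT18 was lower (676 CPM against 847 and 827), and KRT8 was slightly lower (1194 CPM against 1216 and 1234). The part of cell composition in the levels of the 10 genes was not tested, and in bulk RNA a smaller share of cells and less RNA per cell cannot be told apart.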

How the data were processed

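RNA of 6 H69 samples was sequenced, and 1 table of 64253 genes was analysed. Per the submitters' processing notes, bcl2fastq, STAR 2.6.1 and featureCounts of Subread were used with build hg38. Per the file headers, the deposited counts are raw reads assigned to each gene. The RPKM values, per the file headers, are by the authors, scaled to gene length and library size. How strand and multi-mapped reads were treated, and which annotation was used: not given in the sources used here.

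Samples were grouped by the labelled treatment. Counts were fitted in R 4.3.3 with edgeR 4.0.16 (TMM scaling, filterByExpr with a minimum count of 10, robust quasi-likelihood fit comparing treatments, Benjamini-Hochberg adjustment over 20992 genes, called at an adjusted p under 0.05). SE was taken from the fold change and the F statistic. One CPM corresponds to 35.7 to 56.2 reads. The steps were tested on simulated data. The 10 genes and the lists were chosen with earlier results of these data known. Companion genes named are, per list, the called genes with the largest rise and fall at a mean of at least 1 CPM, plus NR3C2, SGK1, HSP90AA1 and FKBP4; other companions were chosen after their values were seen. One companion gene that this rule selects and 1 marker are not reported here by name. Likeness used log2(CPM + 0.1). Alternatives were RLE, library totals alone, no filter, a minimum of 1 CPM in 3 libraries, DESeq2 1.42.0, limma 3.58.1 on log2 RPKM with pseudocounts of 1 and 0.1 (mean RPKM of at least 0.5), the replicate block, and each library left out. Promoter windows are from RefSeq (GRCh38.p14), without chromosome 8. The log2 scale of the deposited RPKM was computed here.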

Additional observations from a re-analysis of the deposited data

How the results depend on the processing

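NR3C1 and CRISPLD2 kept direction and call under all 14 alternatives. Leaving out 1 library gave 1 to 8 of the 10 genes called higher and 1 to 2 lower, 22 to 38 companion genes higher and 15 to 32 lower; the 8 and the 2 both came without vehicle replicate 1, and the 15 without TGF-beta replicate 1 or 2. Over all genes, these fits gave 3204 to 5428 higher and 3055 to 5556 lower. CEBPD turned from -0.23 to 0.53 on the log2 scale without vehicle replicate 1, against -0.51 at the lowest, without vehicle replicate 3. ZBTB16 moved from 0.45 to -0.011 without vehicle replicate 3 and to 2.16 without vehicle replicate 1. The number of the 10 genes called higher was 2 with DESeq2, with at least 1 CPM in 3 samples and with limma at either pseudocount, DUSP1 being the added gene; the number called lower was 2 with DESeq2, which added KLF15. KLF15 was below the RPKM minimum and has no limma value. Library totals alone gave 2698 higher and 7282 lower genes and 37 lower companion genes. Limma gave 2402 (pseudocount 0.1) and 2406 (pseudocount 1) higher genes. The cause of these differences was not tested. Deviations of same-numbered libraries from their group means correlated weakly (0.07, 0.06 and 0.01 for numbers 1, 2 and 3). For TGF-beta replicates 1 and 2 the same-numbered vehicle library gave the highest value. TGF-beta replicate 3 correlated about equally with vehicle replicates 2 and 3 (0.0136 and 0.0129). Values this weak cannot decide whether the numbers pair the samples. The replicate block called 4247 genes higher and 4330 lower and 1 and 1 of the 10 genes. KLF15 had the fewest reads of the 10 genes in each library.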
